A study of Mus musculus with 12 samples.

Results

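The G2 and mitosis genes are a list of 40 mouse genes whose transcripts build up late in the cell cycle, taken by symbol from the 47729 genes of the count tables. The rule takes symbols and uses no measured value, but the list was chosen with earlier results of these data known. Fragments were counted in 12 RNA libraries of 6 liver cancer cell lines, 3 from primary tumours (T1, T2 and T3) and 3 from lymph node metastases (M1, M2 and M3). All 6 lines carry the same labelled genotype, BRAFV600E with p53 KO, so this alteration is common to every group compared, while the design text names hepatocyte-specific BRAFV600E with deletion of Trp53 or of Cdkn2a. Each line gave 1 library after 48 h in DMSO, the solvent, and 1 library after 48 h in 2 µM PLX4720, an inhibitor of the mutant BRAF kinase. The groups are therefore primary with DMSO, primary with PLX4720, metastasis with DMSO and metastasis with PLX4720, with 3 libraries each. The labels do not say that the lines came from separate animals, and T3, M2 and M3 share a number in the table names. P-values therefore measure the spread between these lines.

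The list spans the machinery that divides a cell. Cyclin A and cyclin B switch on the kinase CDK1, Aurora and Polo-like kinases carry the signal to chromosomes and spindle, and the spindle checkpoint holds back the anaphase-promoting complex (APC/C) until every kinetochore is attached. Motor proteins and bundling proteins then part the chromosomes and cut the cell apart. Transcription of many of these genes is held down in resting cells by the DREAM complex and driven in G2 by the MuvB core with B-MYB and FOXM1, which meet DNA at the cell cycle homology region (CHR), while NF-Y binds nearby CCAAT boxes. In tumour cells driven by BRAF the pathway through MEK and ERK feeds cell cycle entry, and proliferation genes such as these are commonly read as a measure of how many cells are cycling.

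Promoter sequences are shown first, since the genes that fell with PLX4720 and those that did not can be compared by the motif letters they carry. RefSeq promoter windows of the GRCm38.p6 build, running from 250 bases before to 50 bases after the transcript start, were matched for 33 of the 40 genes. The letters searched on both strands were TTTGAA or TTCGAA for the CHR and CCAAT for the CCAAT box. The 250 bases before the start are printed 5′ to 3′ on the strand of the gene for 3 genes that fell (Cdk1, Ube2c and Ccnb1) and 3 that did not pass the test (Cdc20, Kif11 and Nusap1), with capitals for either motif on either strand.
Cdk1, chr10:69352913-69353162, minus strand: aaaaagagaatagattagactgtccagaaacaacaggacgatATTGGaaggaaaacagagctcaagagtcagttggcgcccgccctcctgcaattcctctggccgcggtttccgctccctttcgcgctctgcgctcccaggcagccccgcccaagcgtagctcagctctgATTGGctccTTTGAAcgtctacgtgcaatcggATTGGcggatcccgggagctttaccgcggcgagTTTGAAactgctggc
Ube2c, chr2:164769679-164769928, plus strand: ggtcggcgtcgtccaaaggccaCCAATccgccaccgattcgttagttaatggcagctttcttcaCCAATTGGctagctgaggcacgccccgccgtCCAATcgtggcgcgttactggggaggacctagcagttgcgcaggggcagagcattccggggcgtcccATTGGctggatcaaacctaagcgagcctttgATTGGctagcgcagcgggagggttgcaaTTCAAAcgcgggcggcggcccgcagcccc
Ccnb1, chr13:100786487-100786736, minus strand: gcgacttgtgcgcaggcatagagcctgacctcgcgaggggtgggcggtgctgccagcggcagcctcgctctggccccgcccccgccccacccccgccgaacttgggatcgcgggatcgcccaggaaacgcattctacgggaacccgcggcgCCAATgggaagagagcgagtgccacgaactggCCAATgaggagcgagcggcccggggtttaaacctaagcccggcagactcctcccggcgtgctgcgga
Cdc20, chr4:118437344-118437593, minus strand: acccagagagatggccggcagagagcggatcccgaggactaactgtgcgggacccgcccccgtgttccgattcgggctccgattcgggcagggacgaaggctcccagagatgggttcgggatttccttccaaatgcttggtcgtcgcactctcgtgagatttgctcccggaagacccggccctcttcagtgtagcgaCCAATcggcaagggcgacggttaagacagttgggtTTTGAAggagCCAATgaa
Kif11, chr19:37376132-37376381, plus strand: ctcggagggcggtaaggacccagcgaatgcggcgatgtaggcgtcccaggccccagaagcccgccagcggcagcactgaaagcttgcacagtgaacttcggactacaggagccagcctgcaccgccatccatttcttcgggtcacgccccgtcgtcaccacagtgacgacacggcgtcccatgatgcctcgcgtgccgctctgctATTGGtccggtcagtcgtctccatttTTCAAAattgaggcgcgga
Nusap1, chr2:119618048-119618297, plus strand: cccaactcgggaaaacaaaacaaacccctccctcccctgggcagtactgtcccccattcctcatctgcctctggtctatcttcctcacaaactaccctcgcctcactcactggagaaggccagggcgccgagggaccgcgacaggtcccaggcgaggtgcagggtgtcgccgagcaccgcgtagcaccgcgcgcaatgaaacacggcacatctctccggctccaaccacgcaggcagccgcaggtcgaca

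The 6 stretches differ in how many motif letters they hold. Cdk1 has 2 CHR matches and 3 CCAAT matches, and Cdc20 has 1 and 2. The stretch of Ube2c has 1 CHR match and 6 CCAAT matches, of which a pair overlap as CCAATTGG and are counted once on each strand. Ccnb1 has 2 CCAAT matches and no CHR letters, Kif11 has 1 of each, and Nusap1 has neither. A missing match says only that these letters are not in the stretch.

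Across the whole 300-base windows, CHR letters stood in 26 of 33 genes (78.8%), against 21.7% of all 27025 genes with a window. CCAAT stood in 26 of 33 (78.8%), against 41.1% of all genes. Both motifs were present in 23 (69.7%, against 8.61% of all genes), and 4 genes (Birc5, Mad2l1, Nuf2 and Nusap1) had neither. In 24 genes (72.7%, against 6.12% of all genes) a CHR match began within 50 bases of the transcript start. S phase genes had CCAAT about as often, in 16 of 22 (72.7%), and CHR letters in 6 of 22 (27.3%). Another 54 mitosis genes had CHR letters in 28 of the 42 matched (66.7%). Among the 8 matched genes that fell with PLX4720, 6 had CHR letters and 7 had CCAAT. Among the 25 that did not pass, 20 had CHR letters and 19 had CCAAT. The presence of these letters is a description of the sequence and was not tested against the response. A pair of CCAAT boxes on the same strand set 31 to 33 bases apart occurred in 8 genes (24.2%, against 0.918% of all genes). This spacing was chosen after the values were seen. The pair occurred in 0 of the 42 matched other mitosis genes and in 0 of the 22 matched S phase genes.

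**Figure D1:**
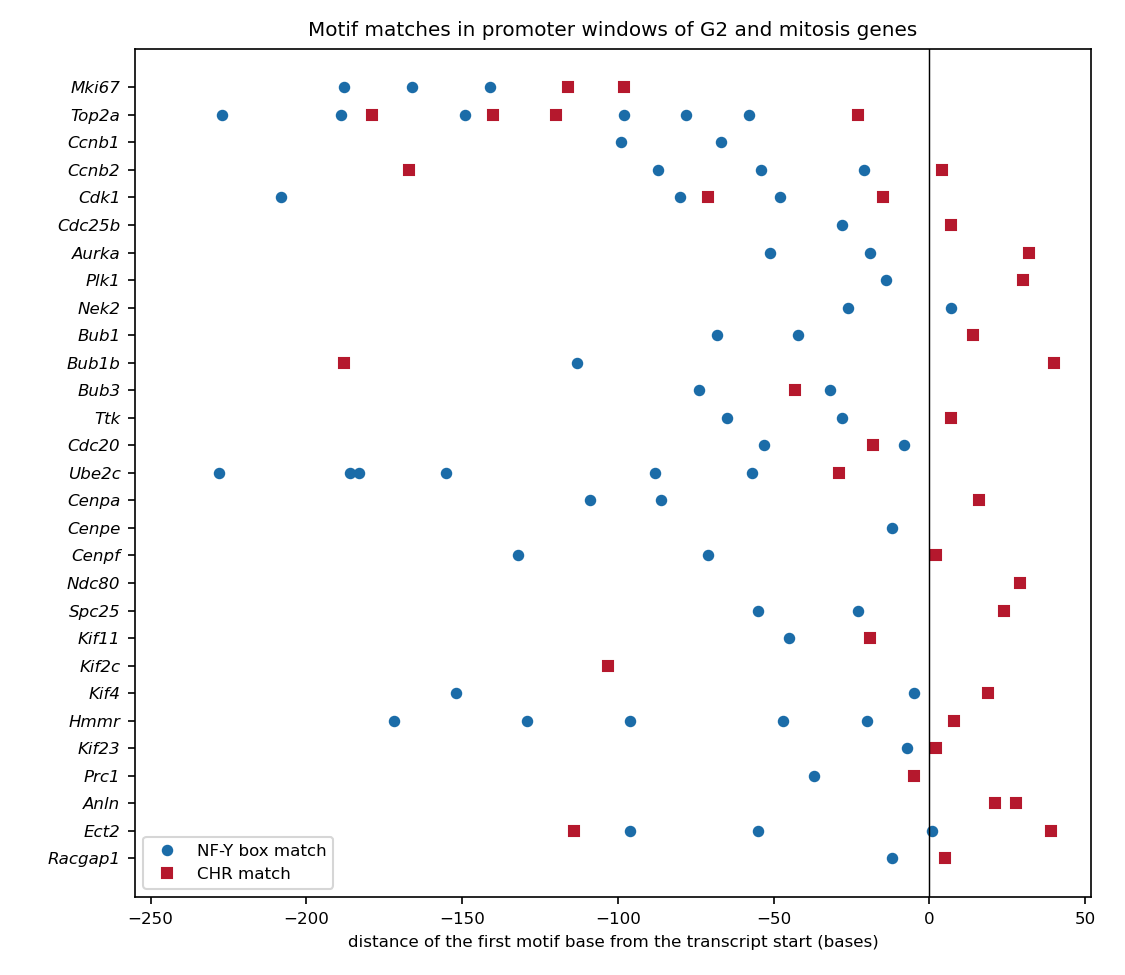
Distance in bases of each motif's first letter from the RefSeq transcript start (x axis), for the 29 genes with either motif in their first window, in the order of their roles (y axis). Most CHR letters (red squares) lie close to the start and most CCAAT matches (blue circles, labelled NF-Y box) lie before them.

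All 40 genes were counted deeply. Libraries held 31992512 to 39288748 counted fragments, the lowest count of any listed gene in any library was 884, and all 40 passed the filter on low counts, among 16555 genes tested. The treated T3 library had 3.67% of its fragments on mitochondrial genes, where the remaining 11 had 0.189% to 0.712%, so T3 results are also given with T3 left out. Levels below are library-scaled counts (CPM) scaled by edgeR's TMM factors, and a change in 1 line is the difference of log2(CPM + 1) between its 2 libraries, with no replicate behind it. Hepatocyte markers were uneven in primary lines. The lipoprotein gene Apob (627 to 1559 CPM) and the transcription factor gene Hnf4a (121 to 266 CPM) were present in every primary library. Most markers of mature hepatocytes were low or near 0 there. Alb stood at 0.132 to 15.8 CPM, Apoa2 at no more than 0.473 CPM and Cps1 and Cyp3a11 at no more than 0.028 CPM. Tf stood at 5.42 to 43.6 CPM. Metastasis lines had Apob at 0.178 to 4.53 CPM, Hnf4a at 0 to 0.203 CPM and Krt8 at 0.297 to 4.76 CPM. These markers were thus near 0 in lines labelled as liver cancer metastases. Among the biliary and epithelial markers, which include Krt8, Spp1 (1187 to 9073 CPM) and Sox9 (10.6 to 28.7 CPM) were present there. Krt7, Krt18, Krt19, Epcam and Cdh1 stood at no more than 9.17 CPM in metastasis lines. The 9 fibroblast and stellate markers summed to 1.29 to 30.9 CPM in primary lines and, in metastasis lines, to 141 to 1337 CPM with DMSO and 545 to 2705 CPM with PLX4720. The 9 leukocyte markers summed to 2.25 to 11.2 CPM. The part of these marker differences in the results below was not tested.

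The list was well expressed in every library. Its 40 genes summed to 7047 to 10031 CPM, or 0.712% to 0.988% of the counted fragments. Per kilobase of exon, the highest mean levels over the 12 libraries were those of Top2a, the topoisomerase that untangles sister chromatids (129 RPKM), Cdc20, the activator of the APC/C (113 RPKM), and Ccna2, cyclin A2 (112 RPKM). Ccnb2 (79.2 RPKM) and Cdk1 (77.7 RPKM) followed. The lowest were Cenpf (13.4 RPKM), Foxm1 (13.9 RPKM) and Ttk (13.9 RPKM). Levels with DMSO varied most between lines for Ccna2, with 3.21-fold between the highest line and the lowest, and least for the spindle motor gene Kif11, with 1.25-fold.

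With PLX4720, the listed genes shifted down by a small amount. Over all 6 lines 9 of the 40 (22.5%) fell past the threshold, an edgeR adjusted p of 0.05, where 12.7% of all 16555 genes tested did so. None rose, at an unadjusted p below 0.05 or by DESeq2 either, where 14.5% of all genes rose. The 9 were Cdk1, Cenpa, Nek2, Cdc25b, Bub1, Aurkb, Kif2c, Ccnb1 and Ube2c. The fitted log2 changes of the list had a median of -0.14, against 0.03 over all genes, and 36 of 40 were below 0. Without M1 the median was -0.087 and 30 of 40 were below 0, and without T3 it was -0.15 and 38 of 40 were. The count depended on which lines were in the fit: it was 2 without T1, 4 without T2 and 4 without T3. In those 3 fits 6.25%, 8.26% and 8.15% of all genes fell. Cdk1 and Cenpa passed in each of the 6 fits with a line left out. A fit that ignored the cell line called 0 of the 40, and 4 of all 16555 genes as lower.

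Within lines, 9 genes were lower with PLX4720 in all 6 lines (22.5%), where 12.8% of all tested genes were. These were Ccnb1, Cdk1, Aurka, Aurkb, Nek2, Bub1, Ttk, Cenpa and Kif2c, although Aurka in M1 was level (-0.00). A further 13 genes were lower in 5 lines, 9 in 4 lines, 6 in 3 lines and 1 in 2 lines. Kif11 and Nusap1 were lower in M1 alone. Because these are bulk RNA libraries, fewer cells in G2 and mitosis and less RNA per cell cannot be told apart.

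**Figure D2:**
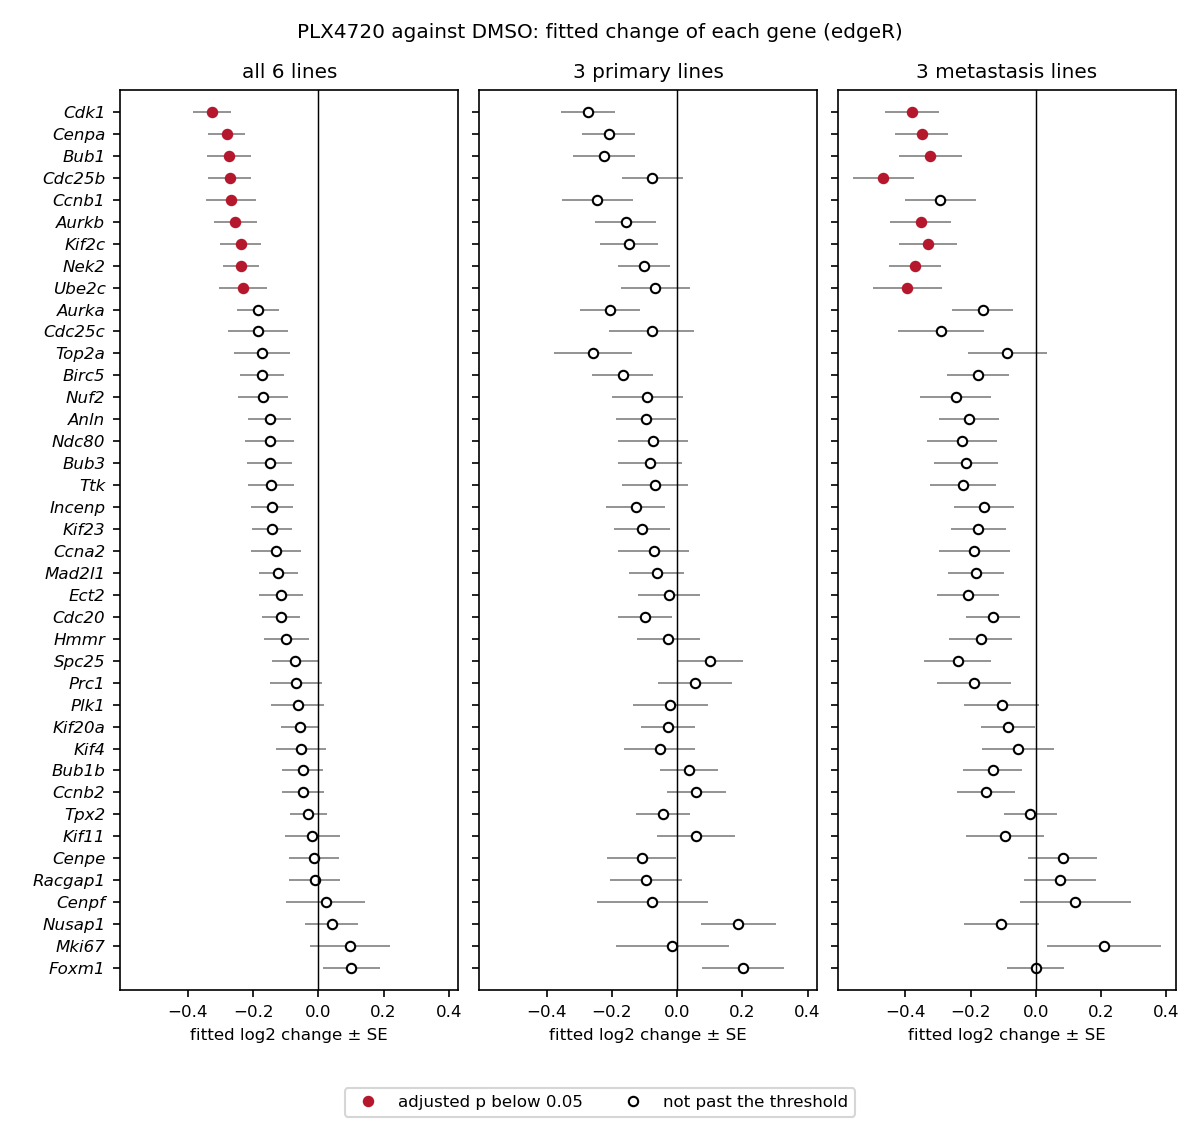
Fitted log2 change with PLX4720 ± SE (x axis) for each gene (y axis) over all 6 lines, in the 3 primary lines and in the 3 metastasis lines; red points passed an edgeR adjusted p of 0.05. Of the 40 genes, 9 passed over all 6 lines, 0 in primary lines and 8 in metastasis lines, all on the lower side.

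Entry into mitosis gave the largest single effect. Cdk1 (ENSMUSG00000019942, chromosome 10, 69336635 to 69352938, minus strand), the kinase that starts mitosis, stood at 314, 249 and 236 CPM with DMSO in T1, T2 and T3 and at 240, 209 and 207 CPM with PLX4720. In M1, M2 and M3 it went from 336, 326 and 330 CPM to 240, 253 and 270 CPM. Cdk1 was lower with PLX4720 in every line, while the ranges of the 2 treatments overlap across lines. Cdk1 fell 1.25-fold in the fit, which is -0.33 ± 0.06 in log2 units (SE; edgeR adjusted p = 0.00483).

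Cdc25b (ENSMUSG00000027330, chromosome 2, 131186949 to 131198497), a phosphatase that activates CDK1, stood at 80.3, 117 and 70.4 CPM with DMSO in primary lines and at 71.4, 118 and 67.1 CPM with PLX4720. In metastasis lines it went from 124, 99.5 and 92.5 CPM to 77.4, 81.5 and 68.4 CPM. There, as for Cdk1, all 3 treated values lay below all 3 DMSO values, and the share of all genes that did so was not counted. The log2 change of Cdc25b was -0.27 ± 0.07 over all 6 lines (edgeR adjusted p = 0.0169) and -0.47 ± 0.09 in metastasis lines (adjusted p = 0.00892). The call over all 6 lines was lost without T1 or T3 (edgeR adjusted p = 0.0739 and 0.0569). Ccnb1 (ENSMUSG00000041431, chromosome 13, 100778650 to 100786570), cyclin B1, stood at 250, 206, 232, 285, 375 and 282 CPM with DMSO in T1 to T3 and M1 to M3, and at 207, 186, 186, 186, 352 and 250 CPM with PLX4720. Cyclin B1 was lower in all 6 lines, most in M1, by a fitted log2 difference of -0.27 ± 0.08 (edgeR adjusted p = 0.0321). Its call was lost without T1, T2, T3 or M1, at edgeR adjusted p of 0.102, 0.0681, 0.116 and 0.0614, and with library totals (0.0503).

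The other 4 entry genes did not pass. Foxm1, the transcription factor of the G2 programme, stood at 90.9, 81.4, 72.5, 75.2, 85.6 and 54.8 CPM with DMSO in T1 to T3 and M1 to M3, and at 92.8, 80.5, 110, 84.6, 81.7 and 50.9 CPM with PLX4720. T3 stands apart, with a change of 0.59, while the other lines lie between -0.10 and 0.17. The fitted change of Foxm1 was 0.10 ± 0.09 (edgeR adjusted p = 0.437), and it ran from 0.0078 to 0.15 with lines left out in turn. Ccna2 (-0.13 ± 0.08), Ccnb2 (-0.05 ± 0.06) and Cdc25c (-0.18 ± 0.09) had edgeR adjusted p of 0.247, 0.625 and 0.174.

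Among the mitotic kinases and their partners, 2 of 6 fell, where 12.7% of all genes tested did. Nek2, a kinase that parts the centrosomes, stood at 144, 63.1 and 116 CPM with DMSO in T1, T2 and T3 and at 126, 61.4 and 110 CPM with PLX4720. In M1, M2 and M3 it went from 145, 151 and 117 CPM to 105, 119 and 95.3 CPM. Nek2 was lower in all 6 lines, by little in T2 and T3, and T2 held less of it than any other line under both treatments. Its log2 change was -0.24 ± 0.06 (edgeR adjusted p = 0.0151, and 0.0779 without T1).

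Aurkb, the kinase of the chromosomal passenger complex, stood at 82.3, 121, 89.1, 130, 117 and 92.8 CPM with DMSO in T1 to T3 and M1 to M3, and at 72.5, 104, 85.5, 86.9, 97.7 and 80.2 CPM with PLX4720. It was lower in every line, by a fitted log2 difference of -0.26 ± 0.07 (edgeR adjusted p = 0.0215). Without T1, T2, T3 or M2 the edgeR adjusted p of Aurkb was 0.0833, 0.0842, 0.0506 and 0.0513. Plk1, the Polo-like kinase, went from 100, 72.7, 74.7, 64.2, 80.6 and 84.0 CPM to 80.7, 72.2, 89.7, 66.5, 73.8 and 71.2 CPM in the same order of lines. Plk1 was lower in 4 lines and higher in T3 and M1, with a fitted change of -0.06 ± 0.08 (edgeR adjusted p = 0.611). Aurka, the spindle pole kinase, missed the threshold (-0.18 ± 0.07, edgeR adjusted p = 0.0675) and passed without M1 (0.0412). The passenger subunits Birc5 (survivin) and Incenp had -0.17 ± 0.07 and -0.14 ± 0.06 (adjusted p = 0.0884 and 0.134).

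Of the 7 genes of the spindle checkpoint and the APC/C, 2 fell, where 12.7% of all genes tested did. Bub1, a checkpoint kinase at kinetochores, stood at 161, 239, 138, 181, 184 and 142 CPM with DMSO in T1 to T3 and M1 to M3, and at 135, 193, 128, 124, 152 and 128 CPM with PLX4720. It was lower in every line, by a fitted log2 difference of -0.27 ± 0.07 (edgeR adjusted p = 0.0180). Without T1, T2 or M2 the edgeR adjusted p of Bub1 was 0.0748, 0.0766 and 0.0530. Ube2c, the ubiquitin-conjugating enzyme of the APC/C, went from 120, 193, 112, 133, 125 and 95.3 CPM to 104, 180, 120, 83.7, 103 and 80.6 CPM. T3 alone was higher. The change of Ube2c over all 6 lines was close to the threshold (-0.23 ± 0.07, edgeR adjusted p = 0.0498) and did not hold when any line but M3 was left out, with adjusted p of 0.0682 to 0.175, with DESeq2's size factors (0.0565) or with library totals (0.0633). Bub1b, Bub3, Mad2l1, Ttk and Cdc20 lay between -0.15 and -0.05 and did not pass.

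At the kinetochore, 1 of 6 genes fell, where 12.7% of all genes tested did. Cenpa, the histone variant that marks centromeres (ENSMUSG00000029177, chromosome 5, 30666777 to 30674830), stood at 89.2, 124, 93.9, 114, 177 and 143 CPM with DMSO in T1 to T3 and M1 to M3, and at 72.0, 109, 85.7, 89.5, 149 and 105 CPM with PLX4720. It was lower in every line, most in M3, by a fitted log2 difference of -0.28 ± 0.06 (edgeR adjusted p = 0.00812). Cenpe, a kinetochore motor, went from 290, 215, 210, 230, 446 and 323 CPM to 237, 201.3, 220, 225, 559 and 312 CPM. Cenpf, a kinetochore protein of late G2, went from 296, 116, 198, 174, 238 and 189 CPM to 235, 99.5, 248, 181, 356 and 156 CPM. Both were higher in T3 and M2 and lower in T1, T2 and M3, and their fitted changes of -0.01 ± 0.08 and 0.02 ± 0.12 did not pass (edgeR adjusted p = 0.927 and 0.921). Under library totals alone the point estimate of Cenpe turned to 0.0038. Nuf2, Ndc80 and Spc25, subunits of the NDC80 complex that grips microtubules, lay at -0.17, -0.15 and -0.07 and did not pass.

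**Figure D3:**
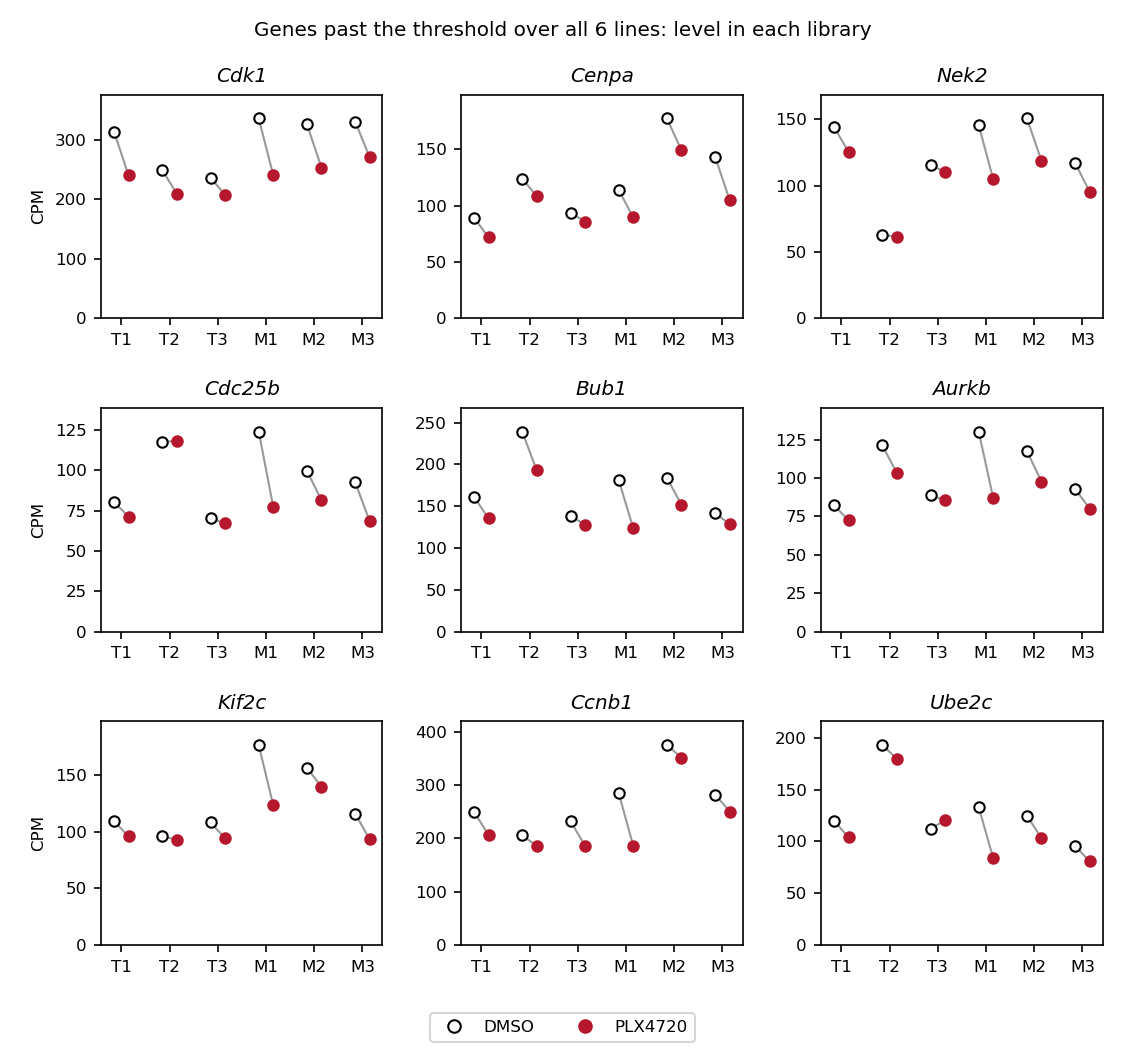
Level in CPM (y axis, from 0) of the 9 genes that passed the threshold over all 6 lines, in each line (x axis), with DMSO (open circles) and PLX4720 (red circles) joined by a line; there is 1 library per point. Cdk1 goes from 336 to 240 CPM in M1, while Cdc25b in T2 stays at 117 and 118 CPM and Ube2c in T3 goes from 112 to 120 CPM.

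Spindle motors and binding proteins gave 1 fall among 6 genes, where 12.7% of all genes tested fell. Kif2c, a kinesin that takes microtubules apart at centromeres, stood at 109, 96.1, 108, 176, 156 and 116 CPM with DMSO in T1 to T3 and M1 to M3, and at 95.7, 92.6, 94.4, 123, 140 and 93.2 CPM with PLX4720. It was lower in every line, by a fitted log2 difference of -0.24 ± 0.06 (edgeR adjusted p = 0.0236). Without T1, T2, T3 or M1 the edgeR adjusted p of Kif2c was 0.0886, 0.0526, 0.0873 and 0.0563. Kif11, the motor that pushes spindle poles apart, went from 336, 312, 340, 334, 280 and 273 CPM to 343, 329, 356, 239, 315 and 277 CPM. It was higher in 5 lines and lower in M1, which left a fitted change of -0.02 ± 0.08 (edgeR adjusted p = 0.906), or 0.08 without M1. Nusap1, a microtubule bundling protein, had the same pattern, with changes of 0.06 to 0.20 in 5 lines and -0.48 in M1. Kif4, Tpx2 and Hmmr lay at -0.05, -0.03 and -0.10 and did not pass.

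None of the 6 cytokinesis genes passed by edgeR at the adjusted threshold, where 12.7% of all genes tested fell and 14.5% rose. Racgap1, a part of the centralspindlin complex that places the cleavage furrow, went from 222, 301, 280, 333, 338 and 199 CPM to 200, 256, 301, 288, 386 and 234 CPM in T1 to T3 and M1 to M3. It was lower in T1, T2 and M1 and higher in T3, M2 and M3, with a fitted change of -0.01 ± 0.08 (edgeR adjusted p = 0.948). Its partner Kif23 lay at -0.14, the furrow protein Anln at -0.15, the RhoA activator Ect2 at -0.12, the midzone bundler Prc1 at -0.07 and the midzone motor Kif20a at -0.06.

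The markers of proliferating chromosomes did not pass. Mki67, the gene of the Ki-67 antigen used to score proliferation (ENSMUSG00000031004, chromosome 7, 135689788 to 135716379), stood at 598, 446, 457, 426, 356 and 334 CPM with DMSO in T1 to T3 and M1 to M3, and at 501, 384, 617, 421, 572 and 325 CPM with PLX4720. T3 and M2 were higher, by 0.43 and 0.68, T1 and T2 were lower, at -0.26 and -0.22, and M1 and M3 stood at -0.02 and -0.04. The fitted change was 0.10 ± 0.12 (edgeR adjusted p = 0.600), and its sign turned without T3 (-0.0099) or without M2 (-0.020). Top2a was lower in 5 lines and higher in M2 (-0.17 ± 0.09, edgeR adjusted p = 0.168).

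**Figure D4:**
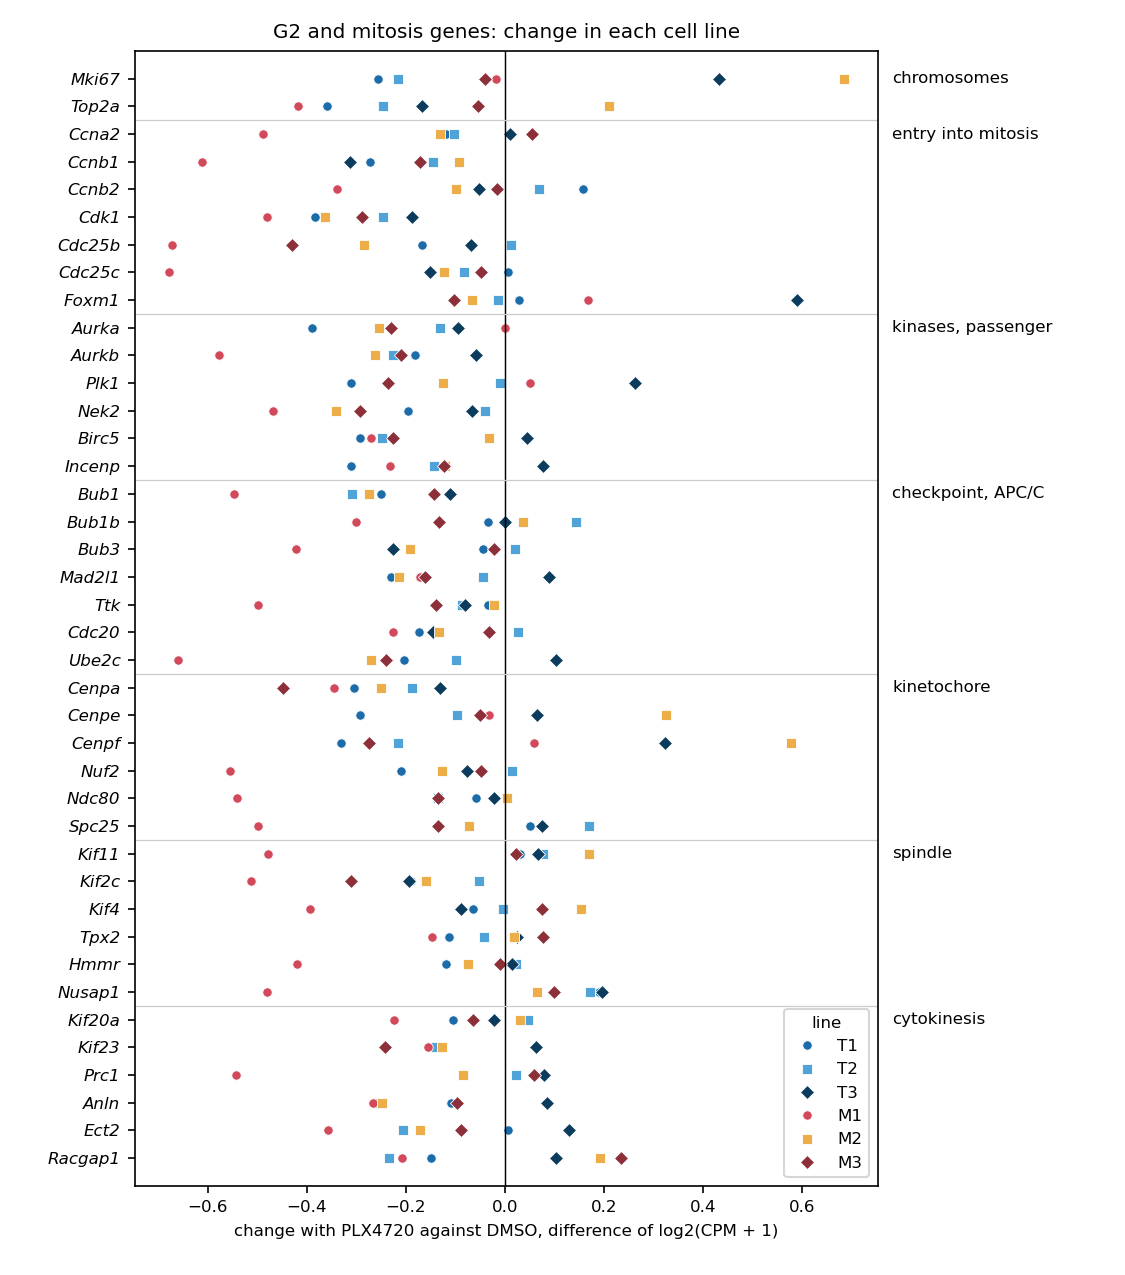
Change with PLX4720 in each line as a difference of log2(CPM + 1) (x axis) for the 40 genes in the order of their roles (y axis); each point is 1 pair of libraries. M1 (light red circles) lies farthest to the left for 28 genes, and T3 (dark blue diamonds) and M2 (yellow squares) lie far to the right for Mki67 and Cenpf.

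The lines differed in how far the list moved. M1 was lowered most: 37 of 40 genes were lower, the median change was -0.41, where the median of all tested genes in M1 was 0.03, and the summed level went from 8956 to 7047 CPM (-21.3%). M1 also had the lowest change of all lines for 28 of the 40 genes. T1 followed, with 32 genes lower, a median of -0.17 and a sum from 8591 to 7530 CPM (-12.4%). In M3, 33 genes were lower, with a median of -0.11 and a sum from 8176 to 7722 CPM (-5.56%).

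T3 was lowered least. Its genes divided into 19 lower and 21 higher, with a median of 0.01 and a sum that went from 7636 to 7762 CPM (1.66%). T2 came next by the median (-0.09), with 28 genes lower and a sum from 8340 to 7715 CPM (-7.50%). M2 had 28 genes lower and a median of -0.11, yet its sum was level, at 9945 CPM with DMSO and 10031 CPM with PLX4720 (0.864%), as the highly expressed Top2a, Mki67 and Cenpe were higher there while most other listed genes were lower. The order of the ends was the same under 4 other settings of scaling and pseudocount, with M1 lowest, T2 second highest and T3 highest, although T3's median was -0.00012 with library totals alone. The middle lines T1, M2 and M3 changed places among these settings. With library totals alone their medians were -0.083, -0.064 and -0.15. There is 1 library per line and treatment, so the order carries no replicate check, and cell growth was not analysed here.

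The gene that fell most differed by line. It was Aurka in T1 (-0.39), Bub1 in T2 (-0.31), Ccnb1 in T3 (-0.31), Cdc25c in M1 (-0.68), Cdk1 in M2 (-0.36) and Cenpa in M3 (-0.45). The highest was Nusap1 in T1 (0.19) and T2 (0.17), Foxm1 in T3 (0.59) and M1 (0.17), Mki67 in M2 (0.68) and Racgap1 in M3 (0.23). Across the 40 genes, Spearman's rho between the changes of 2 lines ran from -0.27 (T1 with M1) to 0.62 (T1 with T2), with a median of 0.21 over 15 pairs. Genes are not independent replicates here.

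Exon length moved with the change in some lines. The 6 listed genes with at least 8000 exonic bases (Mki67, Top2a, Mad2l1, Cenpe, Cenpf and Prc1) had a median change of 0.08 in T3 and 0.27 in M2, against -0.02 and -0.12 for the other 34. In M1 the medians were -0.10 and -0.42, and in M3 -0.05 and -0.13. In T1 and T2 the long genes were the lower ones, at -0.27 and -0.16 against -0.13 and -0.07. Spearman's rho between length and change over the 40 genes was -0.08, -0.16 and 0.20 in T1, T2 and T3 and 0.25, 0.37 and 0.23 in M1, M2 and M3. Over 8351 well expressed genes it was 0.17, 0.11 and 0.27 in T1, T2 and T3 and 0.20, 0.19 and 0.0078 in M1, M2 and M3. The part of length in these changes was not tested.

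Taken by site, no listed gene passed in the 3 primary lines by edgeR, where 3.77% of all genes fell and 4.46% rose. There 3 of the 40 had an unadjusted p below 0.05 (Cdk1, Cenpa and Bub1). DESeq2 called 1 as lower, where it called 6.38% of all genes. The primary median was -0.08. It was -0.025 without T1, -0.049 without T2, -0.095 without T3 and -0.029 with library totals only. Cdk1 came closest, at -0.27 (edgeR adjusted p = 0.0759). In the 3 metastasis lines 8 of 40 (20%) fell, where 8.36% of all genes did, and none rose, at an unadjusted p below 0.05 or by DESeq2 either (12.0% of all genes rose). All 8 were among the 9 that fell over all 6 lines: Cdc25b (-0.47), Nek2 (-0.37), Cdk1 (-0.38), Cenpa (-0.35), Aurkb (-0.35), Ube2c (-0.39), Kif2c (-0.33) and Bub1 (-0.32). The summed fibroblast and stellate markers were higher with PLX4720 in each of these lines. They summed to 2705 against 1337 CPM in M1, 2161 against 983 CPM in M2 and 545 against 141 CPM in M3. Not every marker rose. In M3 Col1a1 went from 4.99 to 179 CPM and Pdgfrb from 72.5 to 314 CPM. Pdgfra (54.3 to 45.9 CPM), Dcn (4.24 to 2.67 CPM) and Thy1 (4.90 to 3.95 CPM) were lower there. Des and Lrat stood at 0 in every metastasis library. The part of these markers in the result was not tested. The metastasis count was 2 without M1, 4 without M2 and 2 when the metastasis libraries were fitted alone. In those fits 6.88%, 3.70% and 5.41% of all genes fell.

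The difference between sites did not pass for any listed gene. edgeR's interaction test called 0 of 40, where 1.09% of all genes had the lower change in metastasis lines and 1.85% the higher. DESeq2 also called 0, and 3 genes had an unadjusted p below 0.05. The fitted change was lower in metastasis lines than in primary lines for 33 of the 40 genes, with a median difference of -0.13. Without M1 these were 23 of 40 and -0.019, and without T3 they were 30 of 40 and -0.11. The median was -0.20 without T1 and -0.21 without M3. Cdc25b came closest, with a difference of -0.39 ± 0.13 (edgeR adjusted p = 0.189), then Nek2 at -0.27 ± 0.11 (adjusted p = 0.302).

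Levels in metastasis and primary lines were compared within each treatment. No listed gene passed by edgeR with DMSO, where 7.49% of all genes were lower and 4.64% higher in metastasis lines, or with PLX4720, where these shares were 7.88% and 5.62%. Of the 40, 7 had an unadjusted p below 0.05 with DMSO, and all 7 were higher in metastasis lines. With PLX4720 there were 4, of which 2 were higher (Cdc20 and Ccna2) and Mad2l1 and Nusap1 were lower. DESeq2 called 2 as higher with DMSO, where it called 8.40% of all genes, and 1 with PLX4720, where it called 9.08%. Cdc20 came closest. It stood at 186, 154 and 169 CPM in primary and 244, 318 and 251 CPM in metastasis lines with DMSO, or 169 ± 16.0 against 271 ± 40.8 CPM (mean ± SD, n = 3 lines). The sites did not overlap, and its log2 difference was 0.69 ± 0.18 (edgeR adjusted p = 0.0552). With PLX4720 it was 158 ± 6.19 against 248 ± 40.9 CPM, a difference of 0.68 ± 0.19 (edgeR adjusted p = 0.0663).

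Ccna2 was high in M2 above all. With DMSO it stood at 321, 386 and 273 CPM in T1, T2 and T3 and at 449, 874 and 566 CPM in M1, M2 and M3. The sites do not overlap, and the log2 difference was 0.96 ± 0.29 (edgeR adjusted p = 0.0822). Of the 40 genes, 10 had all metastasis lines above all primary lines with DMSO (15.0% of all genes tested), and Mki67 and Kif23 had all metastasis lines below (18.4% of all genes). With PLX4720 5 genes were above (16.4% of all genes) and 4 below (18.6%). The median difference of the list was 0.23 with DMSO and 0.13 with PLX4720. With DMSO it was 0.12 without M1. With PLX4720 it was 0.07 without T1, 0.07 without T2, 0.20 without M1, 0.011 without M2 and 0.0087 with library totals only.

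Other cell cycle genes were read beside the list. Of all genes tested, 12.7% fell and 14.5% rose over all 6 lines. Of 28 S phase genes, which open origins, copy DNA and make nucleotides, 18 fell over all 6 lines (64.3%) and none rose by edgeR or DESeq2, with a median of -0.26. Those named here are Cdc45, a helicase subunit (-0.42 ± 0.06, edgeR adjusted p = 0.00257), E2f2, a driver of S phase transcription (-0.75 ± 0.12, adjusted p = 0.00271), and Ccne1, cyclin E1 (-0.54 ± 0.09, adjusted p = 0.00399). The S phase count was 15 without T3, 12 without M2 and 6 without T1, where 8.15%, 7.57% and 6.25% of all genes fell. The S phase medians by line were -0.35, -0.18 and -0.16 in T1, T2 and T3 and -0.47, -0.38 and -0.15 in M1, M2 and M3, so in T3 and M2, where the G2 and mitosis medians were 0.01 and -0.11, the S phase medians were -0.16 and -0.38. The difference between the lists was not tested.

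**Figure D5:**
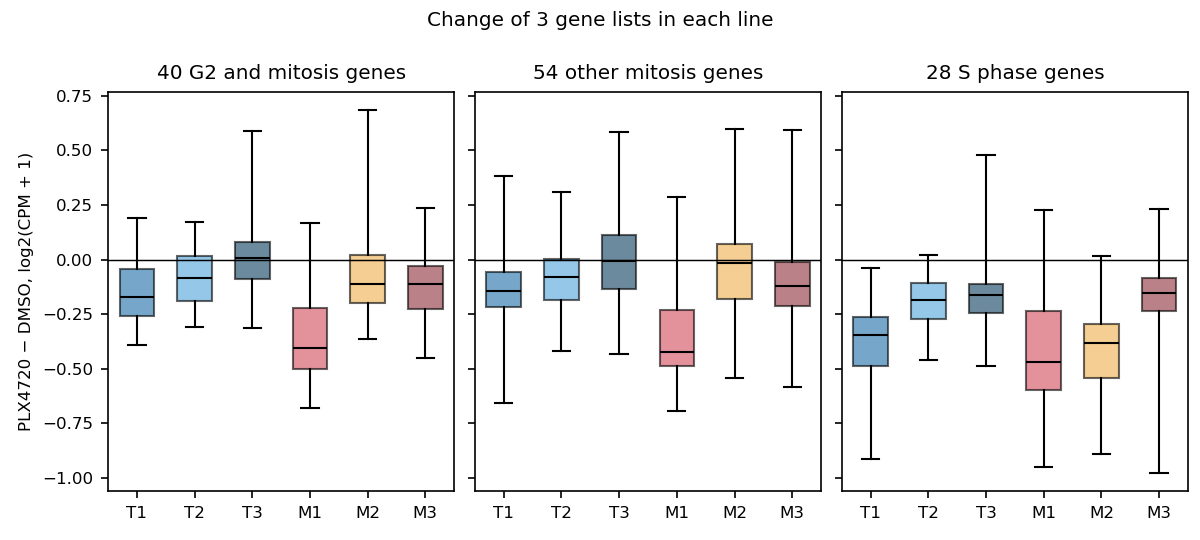
Change with PLX4720 as a difference of log2(CPM + 1) (y axis) in each line (x axis) for the 40 G2 and mitosis genes, 54 other mitosis genes and 28 S phase genes; boxes give the quartiles and median over genes and whiskers the full range. M1 has the lowest median in each list, and the median of T3 is 0.01, -0.01 and -0.16.

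Of a further 54 mitosis genes 11 fell (20.4%, against 12.7% of all genes) and 3 rose (14.5% of all genes did), with a median of -0.11. Their difference from the 40 was not tested. Cks1b, a CDK subunit that was lower in all 6 lines (-0.41 ± 0.05, edgeR adjusted p = 0.00129), led them, with the condensin subunit Ncapg (-0.35), the mitotic kinase Pbk (-0.45) and the centromere protein Cenpq (-0.41). The 3 that rose, named after their values were seen, were Wee1, the kinase that restrains CDK1 (0.32 ± 0.08, edgeR adjusted p = 0.0168, higher in 6 of 6 lines), Ckap2l (0.24) and Iqgap3 (0.32). Without T2 none of the 3 passed and the lower count was 7, where 8.26% of all genes fell and 9.62% rose. By line, the medians of these 54 genes were -0.14, -0.08 and -0.01 in T1, T2 and T3 and -0.42, -0.02 and -0.12 in M1, M2 and M3.

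Of 16 genes for the DREAM and MuvB complexes, their E2F partners and NF-Y, 5 fell: E2f5, Tfdp1, Nfyb, Lin9 and, named after its values were seen, Mybl2, the gene of B-MYB (-0.29 ± 0.09, edgeR adjusted p = 0.0377). Over all 6 lines 12.7% of all genes tested fell and 14.5% rose. The count of 5 was 0 without T1 or without M2, where 6.25% and 7.57% of all genes fell. It was 1 without T2 or without T3, where 8.26% and 8.15% of all genes fell. Of 15 APC/C genes only the scaffold gene Anapc2 changed, and it rose (0.46 ± 0.13, edgeR adjusted p = 0.0303), a call lost without T1, T3 or M2. Of 6 CDK inhibitor genes 2 rose, Cdkn1b, which encodes p27 (0.30 ± 0.07, edgeR adjusted p = 0.0136), and Cdkn1c, which encodes p57. Cdkn1b was higher with PLX4720 in all 6 lines, at 152, 120 and 86.9 CPM with DMSO and 173, 134 and 93.9 CPM with PLX4720 in T1, T2 and T3. In M1, M2 and M3 it went from 53.1, 65.1 and 51.9 CPM to 69.0, 107 and 61.8 CPM. Cdkn1c (1.20 ± 0.23, edgeR adjusted p = 0.00617) stood at no more than 6.29 CPM in any library. Without T1 Cdkn1b did not pass, and without M1 Cdkn1a was called lower.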

How the data were processed

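Per the file headers, the authors counted fragments with featureCounts 1.5.2 over exons of Ensembl 84 (GRCm38), keeping pairs with both ends mapped, and deposited the raw counts. No strand option was set, so reads of genes that overlap on opposite strands are not separable. RNA was depleted of ribosomal RNA before stranded library preparation, per the labels' protocols. For the aligner, a name is not given in the sources used.

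Symbols were matched for 47224 of 47729 genes. The counts went into edgeR 4.0.16 under R 4.3.3 (filterByExpr, TMM, quasi-likelihood test, Benjamini-Hochberg adjustment over all genes tested, threshold 0.05). A single model of 12 libraries held a block for each cell line and separate treatment terms for primary and metastasis lines, with 4 residual degrees of freedom, and averaging these terms gave the effect over all 6 lines. The line named in the labels pairs both of its libraries, whose deviations from group means had correlations of 0.839 to 0.923. Sites were compared on 6 libraries per treatment. SEs are the absolute log2 change over the root of F. Duplicates were looked for within groups and none was found (chi-square per degree of freedom of 127 or more). RPKM divides the scaled CPM by exonic length. The fits were tested on simulated data. The planted changes were larger than most fitted changes of the listed genes, so recovery of smaller changes was not checked. Alternatives were DESeq2 1.42.0, other scalings, no filter, no block and lines left out.

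The listed genes, the other gene lists and the rule for naming genes were chosen with earlier results of these data known. The rule names every listed gene and gives in full Mki67, Cdk1, Ccnb1, Foxm1, Plk1, the 8 smallest and 4 largest p over all 6 lines, and up to 4 smallest p of each other list. Ube2c was added after its values were seen, and a gene of another list that the rule takes is not reported here.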

Additional observations from a re-analysis of the deposited data

Results flagged for a closer look

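Spc25, a subunit of the NDC80 complex at the kinetochore, was picked because its changes had opposite signs in the lines of the 2 sites. The signs given here therefore restate the rule that picked it. How many of all genes split in this way was not counted. Spc25 is described by its levels. It went from 53.5, 53.2 and 55.4 CPM with DMSO to 55.5, 60.0 and 58.4 CPM with PLX4720 in T1, T2 and T3, which was higher in 3 of 3 lines. In M1, M2 and M3 it went from 68.1, 65.1 and 42.9 CPM to 47.9, 61.8 and 39 CPM, lower in 3 of 3 lines. The fitted difference, metastasis minus primary, was -0.34 ± 0.14 on the log2 scale and did not pass (edgeR adjusted p = 0.309). Without M1, the line with the largest fall, it was -0.21.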

How the results depend on the processing

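With no replicate block, which ignores the pairing of both libraries of a line, 0 of the listed genes fell over all 6 lines and 0 in metastasis lines. With lines left out in turn, the count of listed genes that fell ranged from 2 to 9 over all 6 lines and from 2 (without M1) to 7 in metastasis lines. In these fits 6.25% to 11.8% of all genes fell over all 6 lines and 3.70% to 7.60% in metastasis lines. DESeq2, DESeq2's size factors, library totals and no filter gave 7 to 9 over all 6 lines, where 6.64% to 13.9% of all genes fell. In primary lines 1 gene fell with DESeq2 (6.38% of all genes) and 1 when that site was fitted alone (7.98%). In metastasis lines fitted alone 2 fell (5.41% of all genes). Between sites, DESeq2 called 2 genes as higher with DMSO (8.40% of all genes) and 1 with PLX4720 (9.08%). Without M1 edgeR called 1 as higher with PLX4720 (3.69% of all genes). A block on the replicate number in the line names left the counts between sites at 0; those numbers do not pair the lines of the 2 sites, whose deviations correlated at -0.0982 to 0.0120.

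The T3 median turned from 0.01 to -0.00012 with library totals alone. Summed CPM with PLX4720 moved to 7947 (T1) and 8146 (T2) with library totals, and to 8004 (T1), 8200 (T2) and 8114 (T3) with totals without mitochondrial genes. Signs turned only for genes that did not pass. With lines left out, Mki67 ran from -0.020 (without M2) to 0.16, Plk1 from -0.13 to 0.0032 (without T1), Cenpf from -0.091 (without M2) to 0.12, Kif11 from -0.084 to 0.077 (without M1), Kif4 from -0.10 to 0.031 (without M1), Tpx2 from -0.057 to 0.0021 (without M1), Nusap1 from -0.015 (without M3) to 0.13, Prc1 from -0.13 to 0.020 (without M1), Racgap1 from -0.056 to 0.059 (without M1) and Cenpe from -0.073 to 0.025 (without T1). Cenpe also turned with no replicate block (0.0066) and library totals (0.0038), and Racgap1 with library totals (0.0064). The cause of these shifts was not tested. With 1 library per line and treatment, small changes in a single line cannot be checked.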
